A study of Mus musculus with 13 samples.

Results

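The endothelial nuclei of the mouse kidney are described here. Members were the nuclei that the authors placed in their endothelial cluster, Endo, in all 5 samples of single nucleus ATAC-seq (snATAC-seq). The cluster held 2368 of 28316 nuclei (8.36%), of which 27652 fell in 13 main clusters that carry a cell type name. The authors named the clusters from accessibility at known marker genes, with Egfl7 for endothelial cells. The fit of the label to its markers is therefore no independent check. Gene activity, the open calls in a gene's window, was higher in Endo than in each of the 12 other main clusters for Egfl7, a secreted protein of endothelial cells, for Kdr, the main receptor for vascular endothelial growth factor (VEGF), and for Emcn, a sialoprotein of the capillary and venous surface, in 5 of 5 samples.

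The samples were whole mouse kidneys at birth (postnatal day 0, P0, 2 samples), at 3 weeks (P21, 1 sample) and at 8 weeks (P56, 2 samples), and P21 and P56 are joined as adult, as the study does. The labels name no genotype, strain or treatment for these animals, and do not say whether samples of 1 age came from separate animals, so that p-values measure the spread between samples, which may be technical. P0 kidneys were taken after decapitation and older kidneys after perfusion with cold buffer, with a different volume of lysis buffer, so that stage and handling cannot be told apart. An open call is 1 nucleus with at least 1 fragment in 1 of 300755 peaks, and the endothelial nuclei held 10833779 of them, with 4266921 and 2765074 in the P0 samples, 630232 in the P21 sample, and 1900786 and 1270766 in the P56 samples. Of the endothelial nuclei, 77 (3.25%) had a barcode that also occurred in another sample, against 3.39% of all nuclei.

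Endothelial cells line the blood and lymph vessels. In the kidney they form the fenestrated capillaries of the glomerulus, which filter the plasma, the peritubular capillaries, which take up what the tubule recovers, and the arteries and veins between them. Their identity is kept by transcription factors of the ETS family (Erg, Fli1) and of the SOX family (Sox7, Sox17, Sox18), and VEGF made by neighbouring epithelium signals to them through Kdr and Flt1.

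Open regions near 4 genes are shown as sequence, 300 bases from the centre of the most open peak over no exon among the Endo-leading peaks near Egfl7, Kdr, Emcn and Erg. A peak was called Endo-leading when it was open in at least 5% of endothelial nuclei (mean of the 5 samples), in at least 3 times the share of the highest other cluster, and most often in Endo in each sample. Sequences are the plus strand of GRCm38 (mm10), and capitals mark letters of the motifs described further on. The Egfl7 region, chr2:26578451-26578750, lies 1414 bases upstream of the gene's start and holds a SOX match on the plus strand and an ETS match on the minus strand.
Egfl7: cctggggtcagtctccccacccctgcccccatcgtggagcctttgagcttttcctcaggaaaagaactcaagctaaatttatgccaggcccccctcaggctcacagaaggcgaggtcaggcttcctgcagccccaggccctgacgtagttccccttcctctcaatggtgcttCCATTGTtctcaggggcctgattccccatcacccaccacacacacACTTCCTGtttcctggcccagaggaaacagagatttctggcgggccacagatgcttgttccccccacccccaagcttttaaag
The Kdr region, chr5:76014133-76014432, lies 35.8 kb upstream of the start and holds none of the motifs searched.
Kdr: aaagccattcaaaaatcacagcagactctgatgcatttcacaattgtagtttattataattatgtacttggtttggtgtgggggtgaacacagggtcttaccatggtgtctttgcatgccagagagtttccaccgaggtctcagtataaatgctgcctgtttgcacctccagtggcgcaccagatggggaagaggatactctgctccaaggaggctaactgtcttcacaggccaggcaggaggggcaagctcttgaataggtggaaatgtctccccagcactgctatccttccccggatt
The Emcn region, chr3:137322533-137322832, lies 18.4 kb upstream of the start and holds a PU.1 match on the minus strand.
Emcn: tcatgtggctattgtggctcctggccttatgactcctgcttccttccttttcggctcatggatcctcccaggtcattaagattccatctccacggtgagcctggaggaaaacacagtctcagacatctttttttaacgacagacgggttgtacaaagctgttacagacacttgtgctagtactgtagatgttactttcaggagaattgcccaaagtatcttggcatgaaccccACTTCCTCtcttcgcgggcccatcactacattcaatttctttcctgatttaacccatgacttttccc
The Erg region, chr16:95463895-95464194, lies in an intron 122.5 kb into the gene and holds a GATA match on the plus strand and a SOX match on the minus strand.
Erg: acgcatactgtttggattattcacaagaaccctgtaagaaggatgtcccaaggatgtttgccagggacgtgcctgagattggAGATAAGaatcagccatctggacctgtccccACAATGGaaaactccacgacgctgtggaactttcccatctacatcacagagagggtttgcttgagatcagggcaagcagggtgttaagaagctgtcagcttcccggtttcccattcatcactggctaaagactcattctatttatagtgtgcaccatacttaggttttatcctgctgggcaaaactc

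The Egfl7 peak, chr2:26578237-26578964, was open in 46.3% and 39.8% of endothelial nuclei in the P0 samples, 25.3% in the P21 sample, and 23.0% and 32.0% in the P56 samples, and in 4.24% of Stroma2 nuclei, the highest other cluster. The Kdr region was open in 27.9% and 22.1% in the P0 samples, 10.4% in the P21 sample, and 11.4% and 10.9% in the P56 samples, and in 1.1% of Stroma1 nuclei. Both P0 samples were above the adult samples in these shares. In open calls per 1000000 open calls of the endothelial nuclei of a sample (CPM) the order turned for Egfl7, whose peak had 64.2 and 59.3 at P0 and 88.9, 86.3 and 109 in adult samples, while on that scale the Kdr and Emcn regions did not pass the test between stages described below (log2 0.20 ± 0.21 SE and -0.16 ± 0.24). The Emcn region was open in 26%, 19.2%, 5.43%, 9.55% and 6.73% of endothelial nuclei in the same order of samples, and in 1.44% of Immune nuclei. The Erg region was open in 33.4%, 27.2%, 19.5%, 13.1% and 25.5%, and in 1.99% of Stroma1 nuclei. In CPM the order turned for the Erg peak too, with 46.4 and 40.5 at P0 and 68.2, 48.9 and 86.6 in adult samples (log2 0.70 ± 0.24 SE). Endothelial nuclei at P0 had 3.00 times the open peaks of adult ones, so levels are given below in CPM, and the order of the samples is P0 replicates 1 and 2, P21, and P56 replicates 1 and 2.

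The identity genes stood out in the endothelial nuclei. Of 20 genes of endothelial identity, 19 had their highest gene activity in Endo, against 8.6% of the 18242 genes with an open call, 18 did so in all 5 samples, against 2.78% of genes, 12 were at least 3 times above the next cluster, against 0.581%, and 14 had an Endo-leading peak in their window, against 5.39%. The median of Endo over the highest other cluster was 3.58 for the list and 0.577 over all genes. Since the clusters were built from the same chromatin, these contrasts are a description and carry no test.

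**Figure D1:**
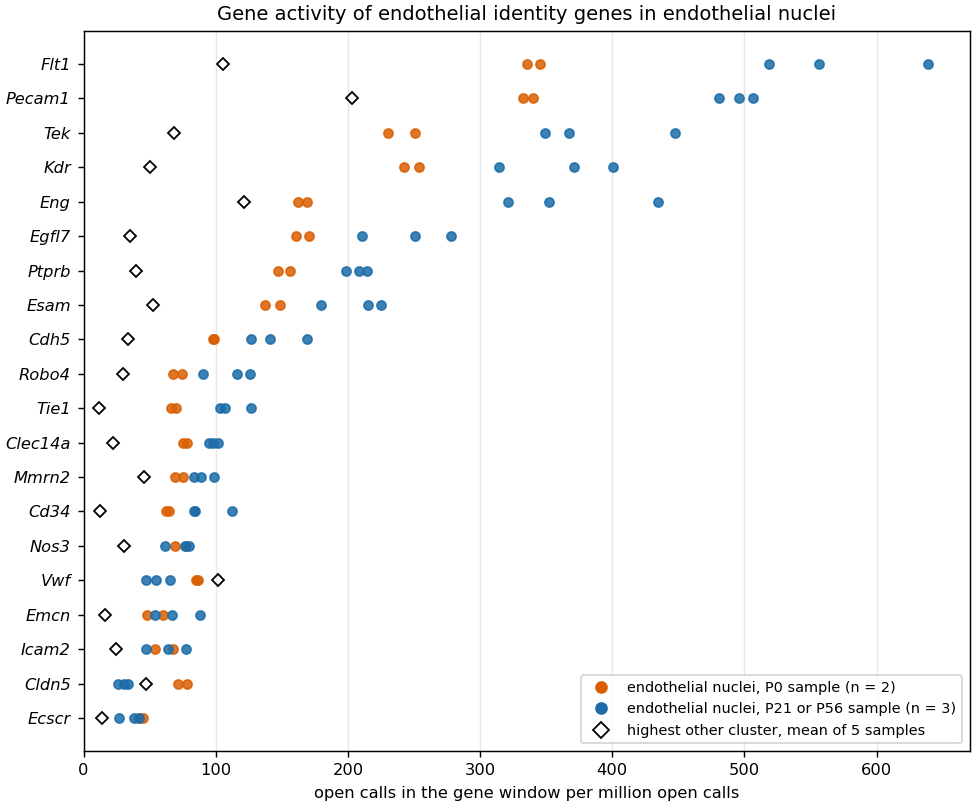
Gene activity (x axis, open calls in the gene window per 1000000 open calls) of the 20 endothelial identity genes in the endothelial nuclei of each sample (orange, P0, n = 2; blue, P21 and P56, n = 3) and in the highest other cluster (open diamonds, mean of 5 samples). The circles lie right of the diamond for 18 of the 20 genes, Vwf lies left of it and Cldn5 straddles it.

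Kdr had 254, 242, 314, 371 and 401 CPM in the 5 samples, and Stroma1, the next cluster, had 50.1 on average, so that Endo was 6.32 times higher. Egfl7 had 171, 161, 251, 210 and 278, and was 6.12 times higher than in Stroma1. Both genes were lower in the P0 samples than in every adult sample. Emcn, with 60.0, 47.7, 53.9, 88.4 and 66.9, was 3.90 times higher than in Stroma1, and its stages overlapped. The receptors that hold and remodel vessels showed the same contrast. Tie1, the orphan partner of the angiopoietin receptor, had 65.9, 70.2, 103, 107 and 127 and was 8.29 times higher, and Tek, the angiopoietin receptor itself, had 251, 230, 349, 448 and 367 and was 4.80 times higher. Flt1, a VEGF receptor that also acts as a decoy, had 346, 336, 519, 557 and 639 and was 4.54 times higher than in nephron progenitors (NP). The plot of identity genes by sample shows these gaps, with Cd34, a sialomucin of endothelium and blood progenitors, at 6.43 times the next cluster and Pecam1, an adhesion molecule shared with leukocytes, at 2.12 times Immune.

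Vwf and Cldn5 were the exceptions. Vwf, von Willebrand factor of larger vessels, had 86.7, 85, 47.6, 65.2 and 55.1 in endothelial nuclei and 101.5 in Immune nuclei, and was below another cluster in 5 of 5 samples. Cldn5, the claudin of tight endothelial junctions, had 78.0 and 71.6 at P0 and 33.3, 26.3 and 30.7 in adult samples, and led the other clusters in 2 of 5 samples. Podocyte nuclei (Podo) had 47.5 on average.

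Markers of most other kidney cells were low in the endothelial nuclei. None of 9 leukocyte markers was highest in Endo, and their sum was 66.6 to 126 CPM against 738 to 1183 in Immune. The macrophage genes C1qa, C1qb and Tyrobp averaged 0.302, 0.238 and 0.607. Cd74, an antigen presentation chain, had 5.86, 12.3, 12.7, 11.6 and 74.8, so that P56 replicate 2 stood apart. None of 10 stromal and mural markers was highest in Endo, with a sum of 129 to 184 against 623 to 728 in the stromal clusters. Of 6 podocyte markers none was highest, but their sum was 421 to 611, of which Synpo, an actin-bundling protein, averaged 398 against 411 in Podo. Tubule markers were also below their own clusters in sum. The 8 proximal tubule markers reached 261 to 394 against 1145 to 1734, the 5 loop and distal markers 68.7 to 151 against 466 to 1079, and the 5 collecting duct markers 15.8 to 32.8 against 201 to 317. Exceptions by gene were Cubn, an endocytic receptor of the proximal tubule at 1.33 times the next cluster, and Meox1, a homeobox gene from the nephron progenitor list at 2.70 times. The sums of the 5 nephron progenitor markers overlapped, with 92 to 118 in Endo against 30.3 to 251 in NP, and Meox1, at 65.1 to 102, made up most of the sum in Endo. These ranges join P0 and adult samples and do not compare the clusters within a sample. Of 5 red cell markers none was highest, with a sum of 24.7 to 58.8.

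Of 20 endothelial transcription factors, 17 had their highest gene activity in Endo and 10 did so in all 5 samples, with a median of 1.44 times the next cluster. The SOX factors and Erg separated most. Sox17, which acts in arterial specification, was 5.47 times above the next cluster, Sox18 5.05 times and Sox7 4.16 times. Erg had 239, 231, 347, 343 and 367, 4.35 times the next cluster. Immune was the next cluster for 9 of the 20, over a wide range, from Bcl6b, a repressor, at 3.55 times and Tal1, a factor of blood and endothelium, at 2.37 times, to Fli1 at 1.37 times and Klf2, a factor induced by flow, at 1.03 times. Ets1 was higher in Stroma2 (0.929 times), Ets2 in intercalated cells (IC, 0.827 times) and Meox2 in NP (0.341 times).

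In the VEGF and angiopoietin list the receptors were high in Endo and the ligands were not. Of 14 genes, 8 were highest in Endo, all of them receptors or co-receptors. Flt4, the VEGF-C receptor, had 124, 118, 109, 118 and 168 and was 3.24 times the next cluster, while the co-receptors Nrp1 and Nrp2 and the semaphorin receptor Plxnd1 were at 1.14, 1.16 and 1.41 times. Vegfa was at 0.572 times the proximal convoluted tubule (PCT), Vegfb at 0.535, Vegfc at 0.442, Pgf at 0.404, Angpt1 at 0.215 and Angpt2 at 0.468 times the highest cluster.

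Genes of single vascular beds gave a mixed picture. Of 14 arterial and Notch genes 7 were highest in Endo (median 0.981 times), with Jag2, a Notch ligand, at 3.07 times, Notch4, an endothelial Notch receptor, at 1.90 and Notch1 at 1.81. Of 5 venous genes 2 were highest. Aplnr, the apelin receptor, had 45.7, 44.1, 47.6, 32.6 and 33.1 against 3.22 in Stroma1 (12.6 times), and Ephb4, the venous ephrin receptor, was at 1.89 times. Of 6 glomerular capillary genes 3 were highest, with Pi16, a secreted protease inhibitor homologue, at 3.48 times and Ehd3, an endocytic protein of glomerular endothelium, at 1.14 times. Of 6 peritubular capillary genes 4 were highest, led by Gpihbp1, which carries lipoprotein lipase to the capillary lumen, at 8.07 times and Plvap, the protein of fenestral diaphragms, at 2.38 times. Of 6 lymphatic genes only Flt4 was highest, Lyve1 was at 0.285 times Stroma2 and Prox1, the lymphatic master factor, at 0.852 times NP. Of 6 tip cell genes 3 were highest, and none was 3 times above the next cluster. Of 7 fatty acid genes 5 were highest, with Fabp4, a fatty acid carrier, at 26.7, 29.7, 39.7, 43.1 and 51.2 against 3.54 in Stroma2 (10.8 times). Of 11 basement membrane genes 7 were highest, with Hspg2, perlecan, at 2.06 times NP and both chains of collagen IV, Col4a1 and Col4a2, at 1.21 and 1.05 times Stroma2.

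At the level of single peaks, 2579 of 300755 (0.858%) were Endo-leading, the most for any cluster by this rule, ahead of 2280 in the proximal straight tubule (PST), 1689 in Immune and 1677 in IC. The ratio to the highest other cluster leaves few peaks to a cluster that shares its open peaks with another. Stroma1 led 34, the loop of Henle 23 and the connecting tubule 5. Endo-leading peaks are described next. The Endo-leading peaks were open in a median of 9.81% of endothelial nuclei and in 1.6% of the next cluster, a median ratio of 6.18, and 260 were open in at least 20%. The next cluster was Stroma1 for 971 of them (37.7%), Stroma2 for 457 (17.7%) and Immune for 299 (11.6%). With every nucleus thinned to 1000 open peaks the rule named 341 peaks. With thinned shares used for the ratio and the order alone it named 2155, among them 1679 of the 2579 (65.1%). The number thus moved with thinning mostly through the minimum share, and the members moved through the ratio and the order too.

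The most open Endo-leading peak, chr12:8443059-8444624, lies outside genes 56168 bases from the start of Rhob, a small GTPase, and was open in 51.5%, 44.2%, 44.3%, 41.2% and 53.8% of endothelial nuclei against 8.52% of Stroma2. The next, chr11:115808837-115810020, lies in an intron of Caskin2, a scaffold protein, and was open in 55.1%, 48.8%, 36.7%, 33.8% and 42.2%. An intron of Pde2a, a cyclic nucleotide phosphodiesterase, held a further one at 38.6% on average. At the start of Tie1, chr4:118489581-118490399 was open in 34.3% on average and was 11.2 times above Stroma1. Over the start of Emcn, chr3:137340776-137341967 was open in 24.2%, 19.7%, 8.60%, 12.5% and 12.3%, and led the other clusters in 4 of 5 samples, so that Emcn had no Endo-leading peak in its window.

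The 1399 Endo-leading peaks within gene windows touched 983 genes. Flt1 and Slc9a9, a sodium-proton exchanger of endosomes, held 8 each, and Exoc3l2, a relative of exocyst subunits, Ptprg, a receptor phosphatase, Dysf, dysferlin of membrane repair, Arhgap26, Ldb2, a LIM domain cofactor, and Adgrf5, an adhesion receptor, held 7 each. Exoc3l2 had 268, 267, 536, 553 and 613 CPM and was 4.44 times above Stroma1. Ptprg, with 176 peaks in its window, was at 1.35 times PCT and Ldb2 at 1.08 times Stroma2, so that a gene with many leading peaks was not always far above the other clusters as a whole. Fgfr2 also held 7 in a gene model of several megabases, and Gm20388, a read-through model with 1225 peaks, held 22, and their windows overlap other genes.

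Endo-leading peaks were placed like other peaks and differed in the letters they held. Introns held 45.2% of them against 46.7% of all peaks, distal sequence 33.2% against 31.6% and promoters 5.58% against 4.92%, and 5.54% lay over an annotated start against 7.43%. Their median width was 629 bases against 414, and their median GC content was 49.0% against 46.7%. Motifs were searched as exact letters on both strands in the central 300 bases.

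The SOX letters CCATTGT were in 10.5% of Endo-leading peaks and in 3.79% of all peaks, 2.76 times as often. In Immune-leading, Stroma2-leading and Podo-leading peaks they were in 3.26%, 3.04% and 3.12%. The ETS letters CAGGAAGT were in 8.61% against 3.49% of all peaks, and in 9.02% of Immune-leading peaks. The PU.1 letters GAGGAAGT, of the ETS factor that blood cells use, share all but the first base with the former, and were in 6.24% of Endo-leading, 2.58% of all and 14.4% of Immune-leading peaks. Both ETS and SOX letters were in 22 Endo-leading peaks (0.853%) against 0.135% of all. Each motif alone was also more frequent there, and the joint share was not tested against what the single shares would give. The sequences shown above for Egfl7 and Erg hold SOX letters, and the one for Emcn holds PU.1 letters.

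**Figure D2:**
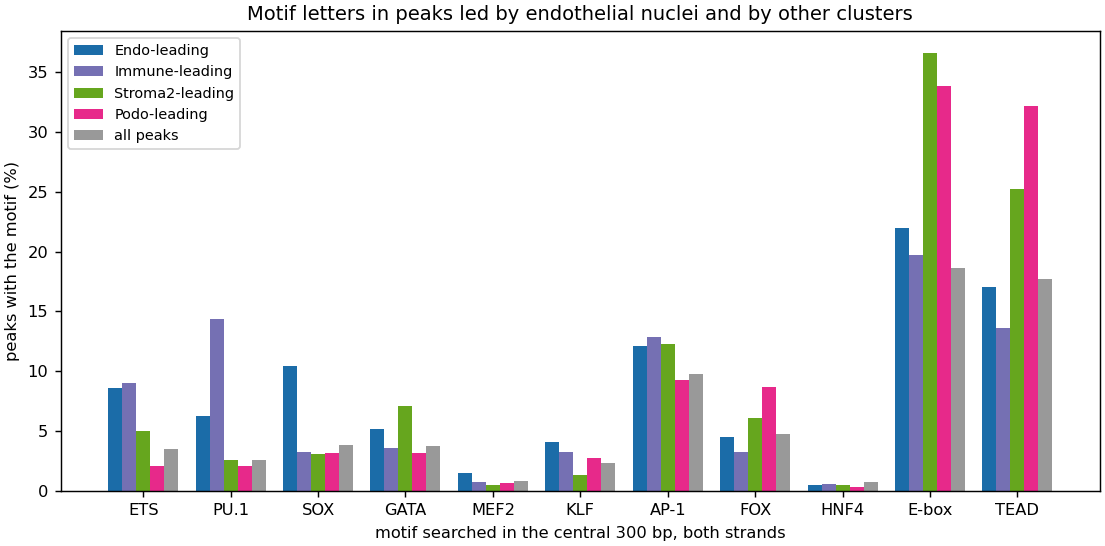
Share of peaks with each motif in the central 300 bases (y axis, %) for Endo-leading, Immune-leading, Stroma2-leading and Podo-leading peaks and for all peaks. SOX letters are highest in Endo-leading peaks at 10.5%, ETS letters are at 8.61% in Endo-leading and 9.02% in Immune-leading peaks, and E-box letters are highest in Stroma2-leading and Podo-leading peaks.

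Other letters moved less. The KLF letters GGGTGTGG were in 4.07% against 2.32% of all peaks, the MEF2 letters CTATTTTTA in 1.47% against 0.786%, the GATA letters AGATAAG in 5.16% against 3.71% (7.09% in Stroma2-leading peaks) and the AP-1 letters TGANTCA, with N for any base, in 12.1% against 9.76%. The FOX letters TGTTTAC were in 4.50% against 4.75%, the TEAD letters GGAATG in 17.1% against 17.7%, the E-box CAGCTG in 21.9% against 18.6%, and the HNF4 letters CAAAGTCCA in 0.465% against 0.729%. At least 1 of 4 motifs (ETS, SOX, GATA, MEF2) was in 24% of Endo-leading peaks against 11.3% of all, and the ETS variant of promoters, CCGGAAGT, was in 0.853% against 0.575%, and among peaks over no annotated start in 0.903% against 0.34%, 2.66 times as often. A match is a run of letters and not a bound site, and these shares over peaks carry no test.

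The endothelial nuclei were not uniform. Clustering them alone, after dropping a first component that followed depth (correlation 0.984), gave 12 sub-groups of 52 to 386 nuclei. Values are a description, since the sub-groups were built from the same open calls. Sub-group 7, with 153 nuclei, was arterial-like. All 14 arterial and Notch genes were above the other endothelial nuclei there, the list summed to 1.70 times them, and Gja5, connexin 40 of arterial endothelium, had 240 CPM against 42.5. Jag1, a Notch ligand, had 267 and Cxcl12, an arterial chemokine, 60.4 in it, and Prdm16, a transcriptional regulator, was at 4.38 times the rest, behind Gja5 and Tox2. It made up 7.77%, 8.01%, 9.50%, 5.06% and 3.94% of the endothelial nuclei of the 5 samples, and its lymphatic list was at 0.499 times the rest. Its stromal and mural markers were at 1.33 times the rest in sum, 7 of 10 of them above it, and its proximal tubule markers at 1.24 times.

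Sub-group 12, with 52 nuclei, was glomerular capillary-like. Of the 6 glomerular genes 5 were highest in it, the list summed to 2.20 times the rest, and Ehd3 had 252, Tbx3, a transcription factor, 146 and Gata5, a GATA factor, 53.0 CPM. Its leading genes were Ikbkb, an inflammatory kinase, at 4.97 times the rest and Dapp1 and Pik3cd of phosphoinositide signalling at 3.90 and 3.43 times. These rest on 39, 18 and 27 open calls, and Gata5 had 48 over all endothelial nuclei. Sub-group 12 also had the arterial and Notch list at 1.30 times the rest, with 12 of 14 genes above it. It drew 37 of its 52 nuclei from P56 replicate 1, and 5 from each of P0 replicate 2, P21 and P56 replicate 2, so it rests largely on 1 library. Sub-group 3, with 304 nuclei, took no name. Plvap had 249 there, and the venous and peritubular lists were at 1.31 and 1.33 times the rest. Nr2f2, the venous factor, and Ephb4 were highest in it at 132 and 261, close to the next sub-groups, and its leading genes were Krt80, a keratin, and Mroh2a. In sub-group 6, with 233 nuclei, all 6 tip cell genes were above the rest, with a list sum of 1.39 times.

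**Figure D3:**
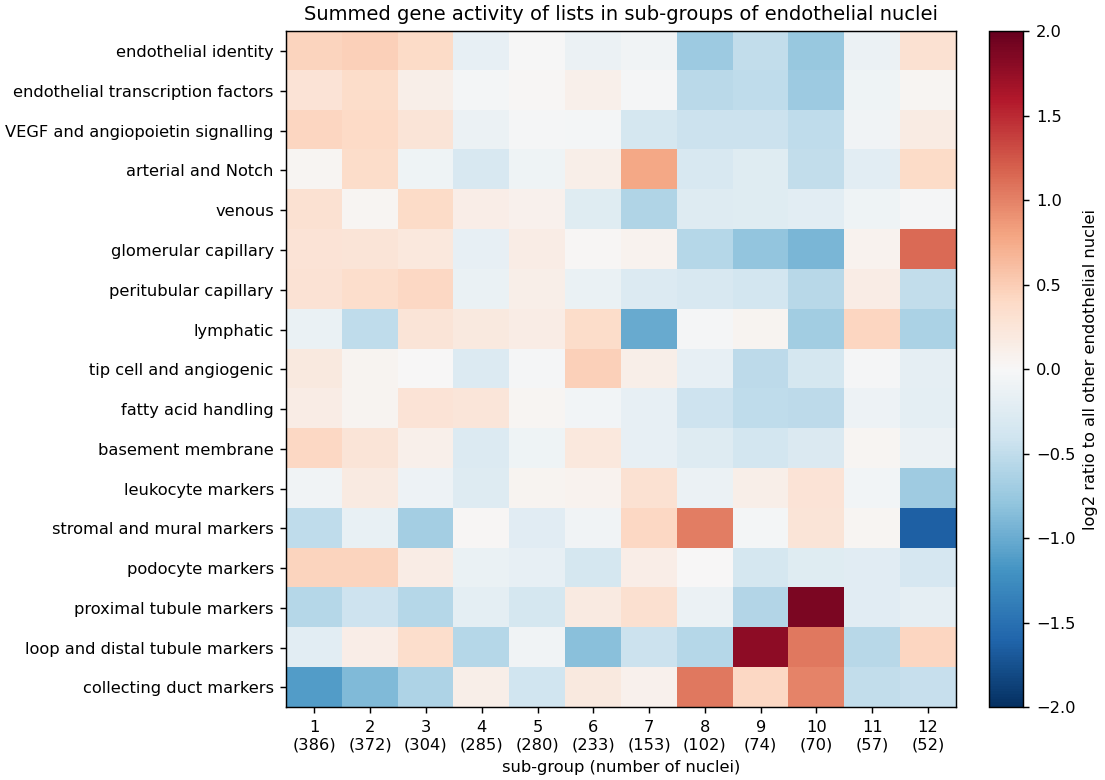
Log2 ratio (colour) of the summed gene activity of each list (rows) in each of 12 sub-groups of endothelial nuclei (columns, number of nuclei below) to all other endothelial nuclei. The arterial list is highest in sub-group 7, the glomerular list in sub-group 12, and stromal, loop and proximal tubule markers in sub-groups 8, 9 and 10.

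Sub-groups 1, 2 and 3 held mostly adult nuclei and sub-groups 4, 5 and 6 mostly P0 nuclei. Genes that changed with stage, such as Xdh, were among those that defined them, so that their sizes are not compared between stages. Sub-group 2 led with Slc6a6, the taurine transporter, and Xdh, xanthine dehydrogenase, at 2.49 and 2.41 times the rest, sub-group 4 with Nlgn1, a synaptic adhesion protein, at 2.42 times and sub-group 6 with Vash1, an angiogenesis inhibitor made by endothelium, at 2.52 times. Sub-groups 1 and 5 were led in part by mitochondrial gene windows that share peaks.

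Sub-groups 8, 9 and 10 carried the most markers of other cells beside endothelial ones. Sub-group 8 (102 nuclei) had all 10 stromal and mural markers above the rest, at 2.03 times in sum, sub-group 9 (74 nuclei) had loop and distal markers at 3.47 times, with Slc12a1, the transporter of the thick ascending limb, at 103 against 8.69, and sub-group 10 (70 nuclei) had proximal tubule markers at 3.68 times, with Lrp2, megalin, at 229. Their identity lists were at 0.606, 0.714 and 0.591 times the rest. Together they held 246 nuclei (10.4%), and 10.3%, 12.9%, 15.8%, 7.72% and 9.74% of the samples. Their median depth was 6422.5 open peaks against 3131 in the other endothelial nuclei. Doublets were not searched for here.

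The share of endothelial nuclei did not separate the stages. They were 10.0%, 7.69%, 6.79%, 10.3% and 6.95% of the nuclei in main clusters, 8.85% ± 1.64 at P0 (SD, n = 2) and 8.01% ± 1.96 in adult samples (SD, n = 3), and the samples overlapped. The difference of -0.843 percentage points had p = 0.6 in a two-sided exact permutation test, whose smallest possible p is 0.2. In the single cell RNA-seq of dissociated kidneys, with 1 library a stage, cells labelled endothelial were 2196 of 25138 at P0 (8.74%, exact 95% binomial interval 8.39 to 9.09) and 199 of 18498 in the adult (1.08%, 0.932 to 1.24). These intervals cover counting error only and the libraries have no replicate. A lower share can come from fewer endothelial cells released or from more of the others, which cannot be told apart.

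The depth of endothelial nuclei separated the stages. Endothelial nuclei had medians of 7195.5 and 6508.5 open peaks at P0 and 2099, 2441.5 and 2306 in adult samples, a ratio of 3.00 between the stage means. This was the highest of the 13 clusters, followed by Stroma2 at 2.15, with Podo lowest at 1.06. Set against the other nuclei of the same sample, endothelial nuclei were at 1.18, 0.957, 0.479, 0.692 and 0.354 of their median depth, so that they were shallower than the others in all 3 adult samples and in 1 of 2 P0 samples. Of all endothelial nuclei 140 had fewer than 1000 open peaks.

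**Figure D4:**
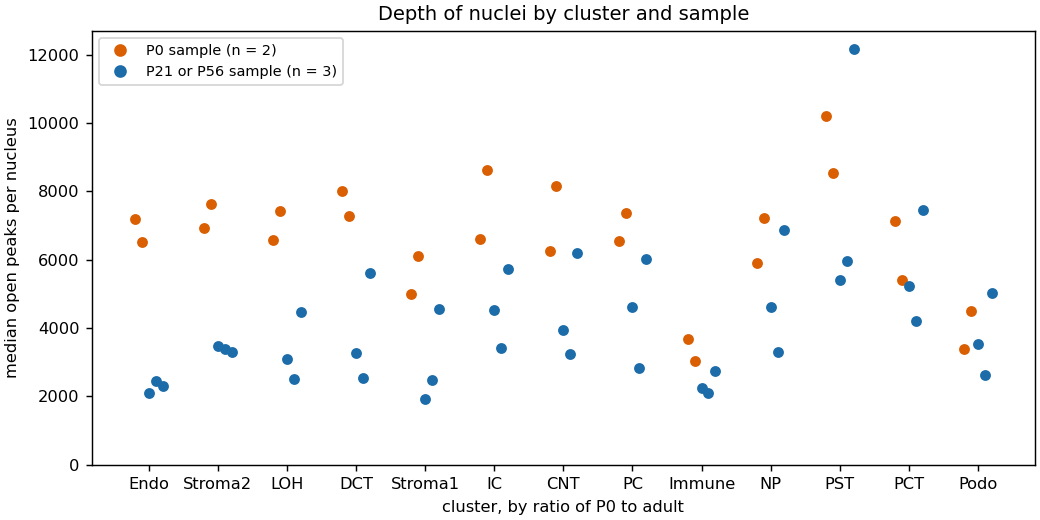
Median open peaks per nucleus (y axis) in each sample (orange, P0, n = 2; blue, P21 and P56, n = 3) for the 13 main clusters (x axis), ordered by the ratio of P0 to adult. Endo, at the left, has the highest ratio at 3.00, with the P0 samples at 7195.5 and 6508.5 and the adult samples at 2099 to 2441.5.

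Within the endothelial nuclei, P0 was compared with adult by summing open calls per sample and fitting edgeR's quasi-likelihood model across all peaks or genes, with Benjamini-Hochberg adjustment and a threshold of 0.05. A positive log2 fold change means a higher CPM in adult nuclei. Of 45215 peaks, 6703 (14.8%) were higher in adult and 7496 (16.6%) higher at P0, while DESeq2's test called 2645 and 2210 and a fit on equal numbers of nuclei 1848 and 1723. Without P0 replicate 1 the calls were 1177 and 1724, and without P0 replicate 2 1394 and 2835. Of the 2579 Endo-leading peaks, 791 were higher in adult and 201 at P0, with a median log2 fold change of 0.33 against -0.01 over all peaks tested. The rule for leading peaks used the same samples and asked for the highest share of nuclei in each. Adult endothelial nuclei had 0.479, 0.692 and 0.354 of the median depth of the other nuclei of their samples. To lead there a peak needs a higher CPM than at P0, so the rule itself favours peaks higher in adult. These counts and the median are therefore a description and cannot show a stage change. The Rhob peak rose from 71.5 and 65.8 CPM to 155, 154 and 183 (log2 1.34 ± 0.20 SE), without overlap.

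In gene activity 15418 genes were tested, of which 1613 (10.5%) were higher in adult and 2169 (14.1%) higher at P0. The balance turned with DESeq2's test, to 1036 higher in adult and 942 at P0, and without P56 replicate 1, to 3012 and 2753. The identity list moved towards adult. Of its 20 genes 12 rose and 2 fell, with a median log2 fold change of 0.54 against -0.01 over all genes. Eng, endoglin, a co-receptor of the TGF-beta family, had 162 and 169 at P0 and 352, 321 and 434 in adult samples (log2 1.16 ± 0.15 SE, adjusted p = 0.000244). Flt1 rose by 0.75 ± 0.13 (adjusted p = 0.00198), Tie1 by 0.74 ± 0.16 (0.00509), Tek by 0.70 ± 0.15 (0.00488), Kdr by 0.56 ± 0.14 (0.0121) and Egfl7 by 0.57 ± 0.14 (0.0126), and in each the adult samples lay above both P0 samples. Pecam1, Cdh5, Esam, Robo4, Ptprb and Cd34 also rose. Emcn, at 0.43 ± 0.21, did not pass (adjusted p = 0.152). Cldn5 fell by 1.35 ± 0.17 on the log2 scale (adjusted p = 0.000266) and Vwf by 0.57 ± 0.17 (adjusted p = 0.0302).

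These identity calls rest on both P0 samples. Of all genes called with both, 3758 of 3758 kept their sign without P0 replicate 1 and 3756 of 3756 without P0 replicate 2. Those fits share their other samples with the main one. Without P0 replicate 1 the test named 2 list members higher in adult and 1 higher at P0, and without P0 replicate 2 it named 1 and 1, where the single P0 sample left is taken to vary like the others. The summed activity of the list was 2688, 2580, 3575, 3887 and 4007 CPM over all endothelial nuclei. In nuclei with 2000 to 4000 open peaks, a range that every sample holds, it was 2769, 3065, 3978, 4050 and 4507, so that the adult samples stayed above P0. Within this range P0 nuclei were still deeper, with medians of 3229 and 3063.5 open peaks against 2736.5, 2816 and 2667. Below 2000 open peaks the sum was 2650, 2648, 4333, 4536 and 4870, and from 4000 to 8000 it was 2793, 2625, 3275, 3241 and 3713. In nuclei with 8000 or more open peaks, of which the adult samples hold 13, 6 and 18, it was 2621, 2484, 2540, 2183 and 2232. There both P56 samples lay below both P0 samples, and P21 lay between them. The sum thus fell with depth within each adult sample, and CPM does not take depth out. In the range of 2000 to 4000, a subset of nuclei chosen after the data were seen, the test called 386 of 7417 genes, among them Eng (0.88, adjusted p = 0.0170), Flt1 (0.76, 0.0165) and Cldn5 (-1.80, 0.00199) of the identity list and no other member. In this smaller set Egfl7 (0.56), Tie1 (0.72), Tek (0.55) and Kdr (0.44) kept positive differences without passing, and Cdh5 was at -0.10. The part of depth in the stage differences was not tested further. Loop and distal markers were also higher in adult endothelial nuclei, with sums of 71.2 and 68.7 CPM at P0 and 144, 129 and 151 in adult samples, a median log2 fold change of 1.01 and 2 of 3 tested genes higher in adult (Umod and Slc12a3). Stromal and mural markers were on the P0 side, with sums of 176 and 184 at P0 and 130, 138 and 129 in adult samples and 2 of 9 tested genes higher at P0, as were collecting duct markers, with 32.8 and 31.1 against 19.0, 15.8 and 20.5 and 1 of 3, and red cell markers, with 58.8 and 52.1 against 41.3, 24.7 and 30.7 and 1 of 3. Podocyte marker sums were higher in adult, with 421 and 424 against 513, 556 and 611, with 1 of 5 tested genes higher in adult and 2 at P0. Over all genes 10.5% were higher in adult and 14.1% at P0. Counts of markers over so few genes were not tested against these shares. Without the sub-groups that carried markers of other cells the loop and distal median was 0.053 with 1 of 2 genes higher, 3 of 9 stromal and mural genes were higher at P0, and 15 identity genes were higher in adult and 1 at P0.

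Of the 20 transcription factors 6 rose and 1 fell, against 10.5% and 14.1% of all genes. Epas1, a hypoxia-inducible factor of endothelium, had 218, 217, 343, 369 and 363 (log2 0.73), Klf2 had 68.2, 73.8, 127, 104 and 150 (0.83) and Erg rose by 0.59 ± 0.13 (adjusted p = 0.00518). Ets2, Sox7 and Gata2 also rose, and Sox17 and Sox18 did not pass. Meox2 fell by 1.71, from 16.2 and 19.2 to 6.35, 4.73 and 5.51. In the VEGF and angiopoietin list 5 of 14 rose, namely the receptors Flt1, Kdr, Tek, Tie1 and Plxnd1 (0.68), and the ligand Angpt1 fell by 1.05. Flt1, Kdr, Tek and Tie1 are also in the identity list, so that their calls are counted in both lists. No other ligand passed. Without P0 replicate 1, 1 call higher in adult was left in this list, and without P0 replicate 2, 1 higher at P0. All 7 transcription factor calls were lost without P0 replicate 1 and without P0 replicate 2, where the list's median log2 fold change was 0.31 and 0.20.

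Of 14 arterial genes 2 were higher in adult, Notch4 (0.79) and Dll4 (0.58), and 3 higher at P0, Cxcl12 (-1.15), Gja5 and Bmx, which is near the shares over all genes (10.5% and 14.1%). Of 5 venous genes Nr2f2 and Ephb4 (0.71) rose, and Selp, the adhesion receptor P-selectin, fell by 0.86 with 53.4 and 54.6 at P0 and 33.3, 26.3 and 31.5 in adult samples. None of the 6 glomerular capillary genes passed in edgeR or in DESeq2, 2 had an unadjusted p under 0.05, and 1 passed with no filter on low counts. Of the 6 peritubular genes 3 rose, Plvap (0.51), Igfbp5 and Rgcc, and Npr3 fell. Of the 6 lymphatic genes 3 fell, Reln, a secreted glycoprotein (-0.92), Lyve1 and Mmrn1, and none rose. Lyve1, a hyaluronan receptor, had 14.8 and 13 at P0 and 3.17, 4.21 and 4.72 in adult samples. Of 6 tip cell genes Dll4 rose and Apln, the apelin ligand, fell, and of 7 fatty acid genes Fabp4 rose (0.70) and Meox2 fell, again near the shares over all genes. Of 11 basement membrane genes 4 rose, Col4a1 (0.69), Col4a2, Lamb2 and Hspg2 (0.37), and Nid1, nidogen, fell by 0.87. In these 7 lists (arterial, venous, peritubular, lymphatic, tip cell, fatty acid, basement membrane) 1 lymphatic call was left without P0 replicate 1, and 1 lymphatic and 1 peritubular call, both higher at P0, without P0 replicate 2. Of 37 genes named for a stage change, 24 and 25 lost the call in these settings. Hspg2 and Vwf lost it in 7 of the settings tried, Dll4 in 6, and Plvap and Nid1 in 5. The plot of stage changes by list places the identity list furthest to the adult side and the lymphatic list furthest to the P0 side.

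**Figure D5:**
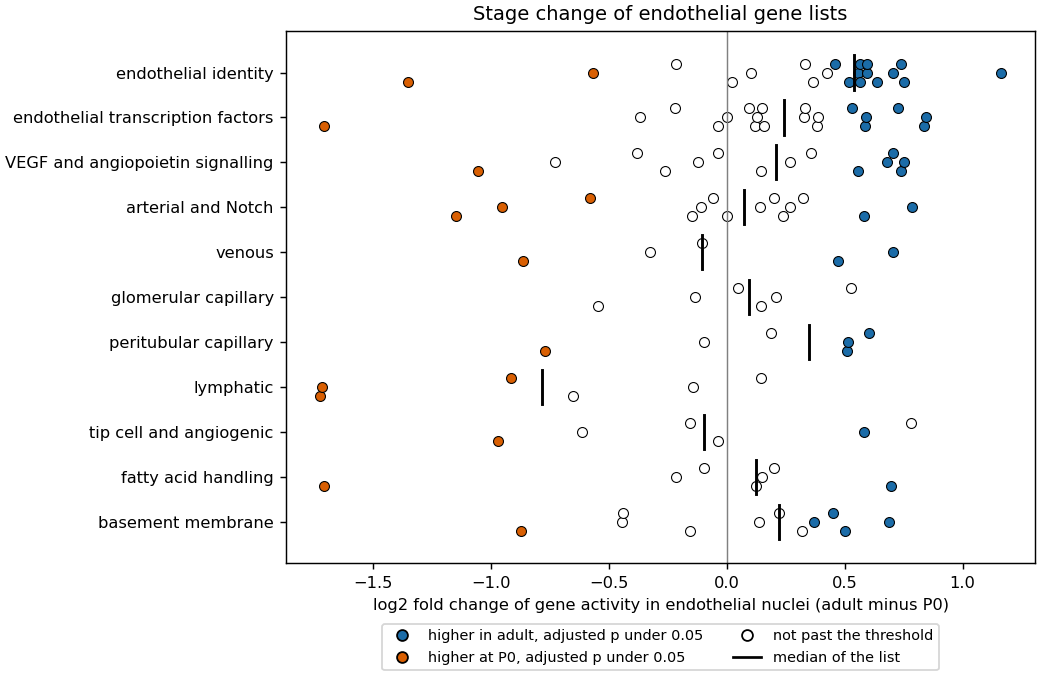
Log2 fold change of gene activity in endothelial nuclei (x axis, adult minus P0, 2 against 3 samples) for each gene of 11 lists (points; filled where the adjusted p is under 0.05) with the median of each list (bars). The identity list has 12 filled points to the right and 2 to the left, and the lymphatic list has 3 to the left.

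Over all genes tested, the genes with the greatest rise in adult among those with at least 20 open calls a sample on average were of several kinds. Xdh had 24.6, 26.4, 80.9, 135 and 123 (log2 2.20 ± 0.22 SE), Slc10a6, a transporter of sulfated steroids, had 8.91, 10.8, 33.3, 50.5 and 47.2 (2.24), and Ly6c1, a surface protein of capillary endothelium and monocytes, had 4.92, 3.62, 17.5, 36.3 and 26 (2.70). No P0 sample reached an adult sample in these genes. The interferon-induced Ifi204 and Mndal, Gm4951, and the antigen presentation genes H2-DMb1 and Cd74 were among the first 10 too. The rise of Cd74 rests on P56 replicate 2, at 74.8, since the other adult samples, at 12.7 and 11.6, lay at the level of P0 replicate 2, at 12.3. Acsm1 and Pdzk1ip1, also among them, were leading genes of sub-group 10 with its proximal tubule markers, at 83.1 and 19.99 times the rest.

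The genes with the greatest fall from P0 included Dcc, a netrin receptor, at 83.0 and 77.4 against 14.3, 5.79 and 7.87 (log2 -3.31), Ofcc1 at 35.6 and 36.5 against 1.59, 5.79 and 3.15 (-3.08), and Lin28b, an RNA-binding protein of fetal tissues, at 28.1 and 31.5 against 7.93, 2.63 and 2.36 (-3.07). Cass4, P4ha3, Prrg3, Grm5 and Dmrt2 fell as well. For Cldn17 the adult samples held 1, 0 and 1 open calls and for Cybrd1, a ferric reductase, 0, 3 and 0, against 73 and 34 and against 67 and 52 at P0, and no fold is given. In nuclei with 2000 to 4000 open peaks Xdh (2.68), Slc10a6 (3.20), Exoc3l2 (1.06) and Dcc (-4.53) still passed.

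Whether endothelial nuclei changed more or less with stage than the other nuclei of the same samples was tested as the difference between the log2 fold change in Endo and the mean of the 12 other clusters, in 1 edgeR model with sample as a term. Of 16888 genes, 1154 (6.83%) were more positive in Endo and 1135 (6.72%) more negative. The balance moved with the setting, to 1530 and 1940 without the sub-groups that carried markers of other cells, to 508 and 729 against Immune and both stromal clusters alone, and to 1309 and 984 with DESeq2 size factors. Of 19 identity genes tested 11 were more positive and none more negative, and of 20 transcription factors 13 and none. The identity gene left out was Cldn5, which fell in the fit on endothelial nuclei alone (log2 -1.35) and could not be fitted here. Of 14 VEGF and angiopoietin genes it was 6 and 2, and of 11 basement membrane genes 7 and 1. Tie1 and Clec14a, among the 19, had SEs of 21.1 and 802, so that their fits could give no call. The identity and VEGF lists share Flt1, Kdr, Tek and Tie1. Other vascular lists gave 6 and 1 of 14 arterial, 3 and 0 of 6 glomerular and 2 and 0 of 6 peritubular genes. Tip cell genes gave 2 and 1 of 6, lymphatic 1 and 1 of 6, venous 1 and 0 of 4 and fatty acid 0 and 0 of 7. For Egfl7 the difference was 1.56 ± 0.16 (SE), for Kdr 1.53 ± 0.18 and for Erg 1.30 ± 0.17. The rise of 0.57 given above for Egfl7 in Endo comes from the fit on endothelial nuclei alone and is scaled apart from these differences. The change of the other clusters alone is not given, since in this model it depends on which sample serves as the reference. Without P0 replicate 1 the test called 633 genes, and without P0 replicate 2 it called 788.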

How the data were processed

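Single nucleus ATAC-seq was measured in 5 kidney samples and single cell RNA-seq in 2. Per the labels and the methods, the authors aligned reads to mm10 (GRCm38) with Cell Ranger ATAC 1.1.0, called MACS2 peaks on the pooled nuclei of each cell type, merged them to 1 list, and clustered nuclei from 5 kb bins with SnapATAC after Harmony. Cells of the RNA-seq were processed with Cell Ranger 3.1.0 and Seurat 3.0. The deposited matrix holds counts of 0 or 1, whether a nucleus has a fragment in a peak, so that depth beyond 1 fragment is not kept, and the deposited peak positions (recorded here as a score) count from 1. Peaks were called where a cell type is open in pooled samples, which can give deep or common clusters more peaks.

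Open calls were summed per sample and cluster. Gene activity was the open calls in peaks over the gene body and 2 kb upstream (GENCODE M21, protein-coding), per 1000000 open calls of the sum (CPM), so that overlapping gene windows share calls. Sums were tested with edgeR 4.0.16 (quasi-likelihood, TMM, filterByExpr with a minimum count of 10 and total of 15, Benjamini-Hochberg, threshold 0.05), after a test on simulated data, and DESeq2 1.42.0 was an alternative. Samples, not nuclei, were the replicates. In the difference between Endo and the other clusters, 324 genes could not be fitted. Others, such as Tie1 and Clec14a, had an SE too large to give a call and count as tested. Sub-groups came from Leiden clustering (leidenalg 0.10.2, 20 components, 20 neighbours, resolution 1). Of 27834 barcodes 477 occurred in more than 1 sample, 4 of them endothelial in both. Doublets were not searched for. Sequences came from the GRCm38 reference.

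The members, the gene lists and the rule for named genes were chosen with earlier results of these data known. Named were Egfl7, Kdr and Emcn, members of the lists (up to 8 each, and those that passed), the 10 genes with most Endo-leading peaks, the 10 genes with the largest stage change each way with a mean of at least 20 open calls a sample, and the 5 leading genes of each sub-group. Alternatives were the scaling, the filter, the tool, the replicate block, equal numbers of nuclei, thinning to 1000 open peaks, nuclei of 2000 to 4000 open peaks, leaving out the deepest nuclei, the sub-groups with markers of other cells or each sample, and other limits for peaks. Bulk ATAC-seq and embedding coordinates were not used here.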

Additional observations from a re-analysis of the deposited data

Results flagged for a closer look

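Each result here was picked out because the stage change in endothelial nuclei differed from the mean stage change of the 12 other clusters of the same samples, in an edgeR quasi-likelihood test of that difference with Benjamini-Hochberg adjustment. It did so for 2289 genes. No explanation was tested for any of them, and depth per nucleus fell more with stage in Endo than in the other clusters, by a ratio of 3.00 against 1.06 to 2.15.

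Among the identity genes the log2 difference was 1.56 for Egfl7, 1.53 for Kdr, 1.34 for Cdh5, 1.18 for Tek, 1.13 for Flt1, 1.1 for Eng and 0.90 for Pecam1. Among regulators and receptors it was 1.30 for Erg, 0.72 for Klf2, 0.96 for Plxnd1, 0.75 for Notch4 and 0.54 for Dll4, and among structural genes 0.90 for Plvap, 0.57 for Col4a1 and 0.55 for Hspg2. The secreted factors Angpt1 and Cxcl12 were more negative in Endo, at -0.84 and -0.82, as was Reln at -0.86. Of the genes with many Endo-leading peaks, Exoc3l2 differed by 1.34, Dysf by 0.49 and Ptprg by 0.70.

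Of the genes with the largest stage changes, Slc10a6 differed by 2.57 and Xdh by 1.70. Dcc, Ofcc1 and Lin28b were more negative in Endo, at -2.20, -1.80 and -1.95.

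Of these calls, Cxcl12 lost its own in 6 other settings and Angpt1 and Reln in 5 each, among them those without P0 replicate 1 and without P0 replicate 2. Dll4 lost it or turned in 5 and Ptprg in 3, Plvap, Col4a1 and Dysf lost it in 3, and Cdh5, Tek, Kdr, Erg, Klf2 and Hspg2 in 2. Eng, Plxnd1, Slc10a6 and Lin28b lost it in 1, and the remaining genes named here in none of the settings that gave them a value.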

How the results depend on the processing

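Peak calls between the stages moved from 14199 to 4855 with DESeq2's test, 3571 with equal numbers of nuclei, 810 after thinning to 1000 open peaks and 84 in nuclei of 2000 to 4000 open peaks, and lay between 2901 and 16408 with 1 sample left out. With no filter on low counts 3585 of 15899 calls were higher in adult, against 6703 of 14199. Gene calls moved from 3782 to 1978, 2292, 1027 and 386 under the same 4 settings, with 1926 of the 1988 called genes tested in the last keeping their sign, and lay between 522 and 5765 with 1 sample left out, where 5765 was without P56 replicate 1. Calls against the other clusters moved from 2289 to 1237 against Immune and stromal clusters alone, 633 after thinning and 3470 without the sub-groups with other markers, and lay between 633 and 2610 with 1 sample left out. The thinning, the range of 2000 to 4000 and the sub-group setting were chosen after seeing the data.

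Endo-leading peaks numbered 341 after thinning, 1675 at 5 times, 1260 at a minimum of 10%, and 2184 to 3238 with 1 sample left out. Over whole peaks 19.3% held SOX letters and 15.1% ETS letters. The difference in the share of nuclei turned to 0.316 without P0 replicate 1 and lay between -2.003 and 0.316 with 1 sample left out. Cdh5 (-0.10) and Dll4 (-0.015) turned in nuclei of 2000 to 4000 open peaks, as did Dll4 against other clusters after thinning (-0.0018) and Ptprg against 3 clusters (-0.035). The cause was not tested. Of 507 values for named genes between the stages 415 kept direction and side, 89 lost the call, 1 gained it and 2 turned. Of 360 values against the other clusters 309 kept both, 47 lost the call, 2 gained it and 2 turned.

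With the replicate number as a block 13110 peaks and 3586 genes were called, against 14199 and 3782. Numbers pair only 2 samples a stage, whose deviations correlated at 0.117 and 0.130, and were not taken as a pairing. Of the endothelial nuclei 140 had fewer than 1000 open peaks, and P21 held the fewest open calls, 630232; how far depth limits the calls was not tested beyond these settings.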

Other observations

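Smaller sub-groups of endothelial nuclei held further differences. Sub-group 11, with 57 nuclei, drew 34 and 18 of them from the P0 samples and 2, 1 and 2 from the adult samples. Angpt2, an angiopoietin that destabilises vessels, had 102 CPM in it, against 46.1 in the other endothelial nuclei (2.21 times), and Igfbp7, a secreted protein of the vessel wall, had 345 against 162. Sub-group 1, with 386 nuclei mostly of the adult samples, had the highest Kdr and Cdh5, at 482 and 194, which were 1.07 and 1.25 times the next sub-group. It was led by Adamts7, a secreted protease, at 2.11 times the rest. Sub-group 5, with 280 nuclei mostly of the P0 samples, had the highest Aplnr at 63.2 (1.07 times the next), and sub-group 4, with 285, the highest Selp at 75.5 (1.42 times). The claudin Cldn5 ranged from 13.4 in sub-group 3 to 102 in sub-group 6. These values have no test, since the sub-groups were built from the same open calls.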
